A study of Homo sapiens with 2 samples.

Results

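The genes described here encode apolipoproteins, the protein components of plasma lipoproteins, together with MTTP, which loads lipid onto apolipoprotein B. The 10 genes were selected by name from the 17397 genes that both libraries list, with their values in these same libraries already known, so the difference between the libraries was itself part of the choice and is given as a description. H1 is a widely used human embryonic stem cell (hESC) line, and 2 libraries of bulk RNA were compared, 1 from wild-type (WT) H1 cells and 1 from MEIS2-/- H1 cells, both at day 4 of hematopoietic differentiation. Both cultures had been given activinA (50 ng/ml) with BMP4 (40 ng/ml) over 2 days, followed by VEGF (40 ng/ml) with bFGF (50 ng/ml) over 2 more. The MEIS2-/- line was a clone made by lentiviral CRISPR/Cas9 with puromycin selection, and the sources used here do not say which homozygous clone was sequenced. MEIS2 itself, the deleted gene, was at 10.85 FPKM in the WT library and at 3.44 FPKM in the MEIS2-/- one.

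Apolipoproteins wrap lipid so that it can travel in water-based fluids. APOB forms the single large protein of very-low-density lipoproteins and chylomicrons, and MTTP transfers triglyceride to it in the endoplasmic reticulum. APOA1 and APOA2 are the main proteins of high-density lipoprotein, and APOE and the small C apolipoproteins exchange between particles and steer their uptake and lipolysis. In the early embryo the visceral endoderm of the yolk sac makes lipoproteins that feed the embryo, which is why APOA1, APOA2 and APOB count as yolk sac type genes, whereas APOE is made by many cell types. Liver and intestine take over this role later.

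Expression is given as FPKM, the number of fragments assigned to a gene for each kilobase of its transcripts and each 1000000 mapped fragments, so levels may be compared between genes. Log2 fold changes are log2 of MEIS2-/- over WT with 0.1 FPKM added on both sides, a step that understates the difference of weakly expressed genes. A gene was compared when either library had it at 1 FPKM or above, as for 13075 genes, and it was counted when the libraries differed at least 2-fold on this scale. With 1 library per genotype there is no replicate, hence no test, no standard error and no p-value, and what belongs to the genotype and what to the individual culture cannot be told apart. In bulk RNA, fewer cells of a type and less RNA per cell cannot be told apart either.

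The promoters of the members are shown first, as a description of what lies before their start sites. The members were chosen on the same libraries, so the promoters of higher members are not set against that of APOE. The RefSeq promoter table used here (GRCh38.p14) held 7 of the 10 members. APOA1, APOB and APOC3 were not among them. For each promoter the 250 bases before the annotated start are printed 5′ to 3′ in the direction of transcription, and the capitals mark matches on either strand to short motifs. These included TATAAA for the core promoter element of that name, CCAAT for the box of that name, CAAAGNNCA for HNF4A, TGTTTAC for forkhead factors, AGATAA for factors of the GATA family, AGGTCA for nuclear receptors, TTGCNNAA for C/EBP and TGACAG for MEIS factors. A CAAAGNNCA match can contain AGGTCA, which was not the case in the member that holds it. APOA2 lies on the minus strand at chr1:161223629-161223878. MTTP has a pair of listed starts, of which the downstream one is shown, on the plus strand at chr4:99574574-99574823. APOM lies on the plus strand at chr6:31655644-31655893, and APOA4 on the minus strand at chr11:116823305-116823554. For APOE, the first of its 3 listed starts is shown, on the plus strand at chr19:44905546-44905795.
APOA2: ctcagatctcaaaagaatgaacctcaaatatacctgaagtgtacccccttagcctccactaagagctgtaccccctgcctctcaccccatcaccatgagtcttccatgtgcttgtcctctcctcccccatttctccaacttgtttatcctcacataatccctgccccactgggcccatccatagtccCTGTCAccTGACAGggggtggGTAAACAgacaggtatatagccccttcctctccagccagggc
MTTP: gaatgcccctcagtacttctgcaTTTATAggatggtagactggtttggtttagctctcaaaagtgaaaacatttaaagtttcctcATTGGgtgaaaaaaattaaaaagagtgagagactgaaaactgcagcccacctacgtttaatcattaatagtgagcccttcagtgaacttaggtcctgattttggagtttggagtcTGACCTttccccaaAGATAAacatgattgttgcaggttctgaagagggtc
APOM: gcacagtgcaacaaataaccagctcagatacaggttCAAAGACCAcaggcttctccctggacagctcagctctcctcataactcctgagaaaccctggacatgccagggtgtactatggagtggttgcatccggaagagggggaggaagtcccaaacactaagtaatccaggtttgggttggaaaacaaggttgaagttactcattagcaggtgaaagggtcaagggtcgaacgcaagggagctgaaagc
APOA4: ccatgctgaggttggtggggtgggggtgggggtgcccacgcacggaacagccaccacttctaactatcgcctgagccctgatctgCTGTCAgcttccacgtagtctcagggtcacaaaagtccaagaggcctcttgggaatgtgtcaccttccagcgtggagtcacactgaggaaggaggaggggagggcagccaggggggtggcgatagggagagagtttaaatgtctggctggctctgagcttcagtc
APOE: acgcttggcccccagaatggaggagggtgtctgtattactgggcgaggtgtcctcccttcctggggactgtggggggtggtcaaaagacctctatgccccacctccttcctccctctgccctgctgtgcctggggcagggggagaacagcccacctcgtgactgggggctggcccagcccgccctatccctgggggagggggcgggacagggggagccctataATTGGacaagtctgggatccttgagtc

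In the APOA2 promoter, TGACAG occurred on both strands, 63 and 55 bases before the start, and the forkhead letters TGTTTAC stood on the minus strand 42 bases before it. TGACAG also occurred in APOA4, in the upstream MTTP promoter and in APOH. It is common, being held by 13.0% of the 35116 promoters in the table, and TGTTTAC was held by 2.98%. The downstream MTTP promoter held AGGTCA on the minus strand, 50 bases before the start, followed by AGATAA at 36 bases, and these motifs were held by 12.1% and 9.17% of all promoters. Further upstream, this MTTP promoter also held TATAAA and CCAAT on the minus strand, 227 and 165 bases before the start. APOM had the HNF4A letters CAAAGNNCA 214 bases before its start, a motif held by 4.44% of all promoters. The APOE promoter shown held a CCAAT box on the minus strand and no other motif searched, and the APOC1 promoter held none. CCAAT was held by 32.0%, TATAAA by 10.7% and TTGCNNAA by 9.05% of all promoters, and TTGCNNAA was not found in a member. GC content was 52.8% in the APOA2 promoter, 40.0% in the downstream MTTP promoter and 64.8% in the APOE promoter shown, beside a median of 58.0% over all promoters. A match is a run of letters and not evidence of binding.

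Of the 10 genes, 7 were at least 2-fold higher in MEIS2-/- cells, none was at least 2-fold lower, APOE and APOC1 differed by less, and APOH was too low to be compared. Over all compared genes, 7.84% were at least 2-fold higher and 7.97% at least 2-fold lower. Nothing is read from this contrast, because the members were chosen on the same libraries. The filter adds to it. APOA4, APOB, APOC3, APOM and MTTP were all under 1 FPKM in WT cells, so they were compared only because they were above that level in MEIS2-/- cells, and of the 518 compared genes of this kind 65.1% were at least 2-fold higher. Of the 12557 genes that reached 1 FPKM in WT cells, 5.48% were at least 2-fold higher, and of the 4 members among them these were APOA1 and APOA2.

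**Figure D1:**
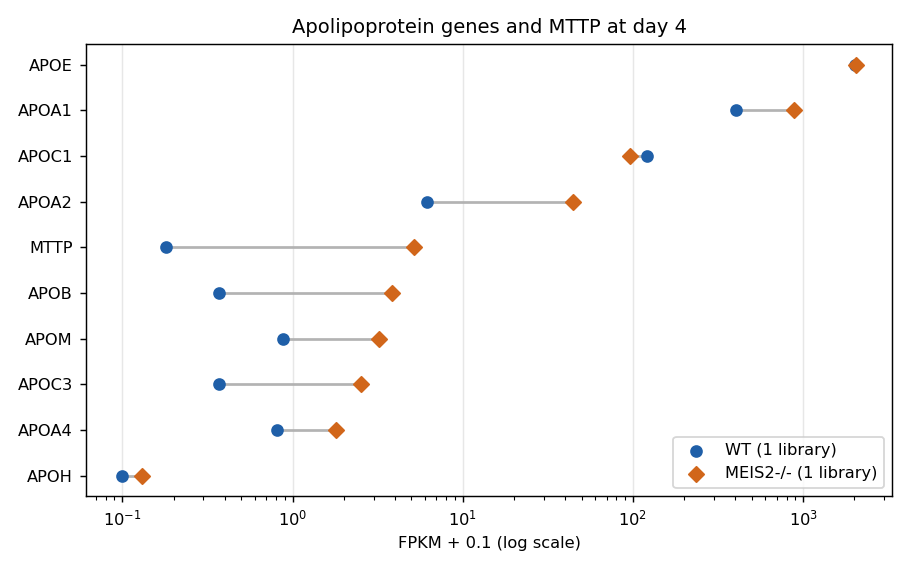
Level of each of the 10 genes in the WT library (circle) and the MEIS2-/- library (diamond), as FPKM + 0.1 on a log axis, 1 library per genotype. APOE lies at 2011 and 2037 FPKM, whereas MTTP has the longest line, from 0.08 to 5.05 FPKM.

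The levels spanned a wide range. In WT cells APOE was highest, at 2011 FPKM, followed by APOA1 at 401.4, APOC1 at 120.9 and APOA2 at 6.10 FPKM. The remaining 6 genes were under 1 FPKM there. In MEIS2-/- cells the same 4 genes led in the same order, and MTTP moved from place 9 to place 5. The 10 genes together made up 0.568% of the summed FPKM of all genes in WT cells and 0.697% in MEIS2-/- cells. Without replicates it is not known which neighbours in these orders differ beyond the spread between cultures.

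APOA1, the scaffold of high-density lipoprotein, was at 401.38 FPKM in the WT library and at 879.13 FPKM in the MEIS2-/- one. This is a log2 fold change of 1.13 and, at 477.75 FPKM, by far the largest difference in amount among the members. Its rank by level among all 17397 genes was 157 in WT cells and 69 in MEIS2-/- cells. APOA1 was therefore an abundant mRNA in both libraries and lay just past the 2-fold limit.

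APOA2, the second protein of high-density lipoprotein, was at 6.10 FPKM in the WT library and at 44.54 FPKM in the MEIS2-/- one, with a log2 fold change of 2.85. It was the only member besides APOA1 that was both above 1 FPKM in WT cells and past the 2-fold limit. Relative to APOA1 in the same library, APOA2 stood at 1.52% in WT cells and 5.07% in MEIS2-/- cells. Such a ratio within a library does not depend on how the libraries were scaled to each other.

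APOA4, which in adults is an intestinal apolipoprotein, was at 0.71 FPKM in the WT library and at 1.71 FPKM in the MEIS2-/- one, with a log2 fold change of 1.16. It was the member whose call hung most on the pseudocount, since adding 1 FPKM in place of 0.1 brought it to 0.66, under the limit. Its ratio to APOA1 was 0.177% in WT cells and 0.195% in MEIS2-/- cells.

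APOC3, an inhibitor of triglyceride lipolysis encoded between APOA4 and APOA1, was at 0.27 FPKM in the WT library and at 2.41 FPKM in the MEIS2-/- one. Its log2 fold change of 2.76 was close to that of APOA2. Relative to APOA1 it stood at 0.0673% in WT cells and 0.274% in MEIS2-/- cells. APOC3 and APOA4 thus remained trace transcripts beside APOA1, which they neighbour on chromosome 11.

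APOB was at 0.27 FPKM in the WT library and at 3.72 FPKM in the MEIS2-/- one, with a log2 fold change of 3.37. Its transcript is long, at 14.1 kb, so a low FPKM stands for more fragments than in a short gene. FPKM multiplied by transcript length gives about 3.81 fragments for each 1000000 mapped in WT cells and 52.5 in MEIS2-/- cells. By the same measure APOC3, with a transcript of 0.550 kb and the same FPKM in WT cells, had about 0.149 and 1.33 fragments. The APOB value in WT cells thus rests on more fragments than the APOC3 value.

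MTTP, the microsomal transfer protein without which APOB is not lipidated, was at 0.08 FPKM in the WT library and at 5.05 FPKM in the MEIS2-/- one. Its log2 fold change of 4.84 ranked 3 among the 13075 compared genes, with about 0.327 and 20.7 fragments for each 1000000 mapped. The size of this ratio depends on the pseudocount, running from 2.49 with 1 FPKM added to 5.81 with 0.01 FPKM added. With 0.1 FPKM added, MTTP and APOB had the largest log2 fold changes of the members, both from near the floor of the WT library, whereas with 1 FPKM added APOA2 was highest, at 2.68, and APOB was at 1.89.

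APOM, a lipocalin that carries sphingosine-1-phosphate on high-density lipoprotein, was at 0.78 FPKM in the WT library and at 3.12 FPKM in the MEIS2-/- one, with a log2 fold change of 1.87. In the RefSeq table its span overlaps that of BAG6, which lies on the other strand and was at 132.37 FPKM in the WT library and at 122.05 FPKM in the MEIS2-/- one. Nothing in the sources used here says that the counting used strand, so reads from the overlap cannot be assigned with certainty. APOH, a phospholipid-binding plasma protein, was listed at 0 FPKM in the WT library and at 0.03 FPKM in the MEIS2-/- one and was not compared.

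**Figure D2:**
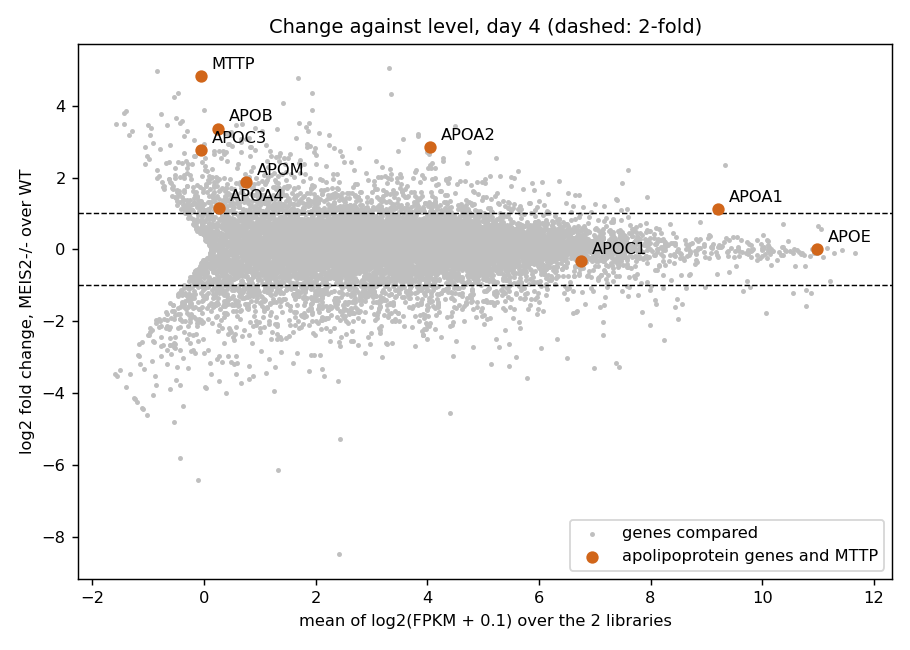
Log2 fold change (MEIS2-/- over WT) against the mean of log2(FPKM + 0.1) over both libraries, for the compared genes with a symbol (grey) and the 9 compared members (orange), with the 2-fold limits dashed. APOA1 and APOE lie at the right, among the most abundant mRNAs, and the 5 members under 1 FPKM in WT cells lie at the left, where the grey cloud is widest.

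APOE, which guides the receptor uptake of remnant particles, was at 2011.12 FPKM in the WT library and at 2036.74 FPKM in the MEIS2-/- one. Its log2 fold change was 0.02, beside a median of 0.12 over all compared genes, and its sign turned to -0.097 when the libraries were scaled to a median log2 ratio of 0. APOE ranked 15 by level among all genes in WT cells and 7 in MEIS2-/- cells. No direction is given for it.

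APOC1, which lies next to APOE on chromosome 19 and modulates its binding and lipid exchange, was at 120.94 FPKM in the WT library and at 96.00 FPKM in the MEIS2-/- one. The log2 fold change was -0.33, under the 2-fold limit. APOC1 was the only member with a lower value in MEIS2-/- cells under the deposited scaling, and its ratio to APOE was 6.01% in WT cells and 4.71% in MEIS2-/- cells. APOC1 has a nearby pseudogene copy, APOC1P1, and how shared reads were divided is not given in the sources used here.

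Of the yolk sac type genes, APOA1 and APOB were also set against APOE within each library. APOA2, at 6.10 and 44.54 FPKM, was set against APOA1 only. APOA1 was at 20.0% of the APOE level in WT cells and 43.2% in MEIS2-/- cells. APOB was at 0.0134% of it in WT cells and 0.183% in MEIS2-/- cells. The plain ratio of ratios was 2.16 for APOA1, 13.6 for APOB and 0.784 for APOC1. That of APOB starts from 0.27 FPKM in WT cells, near the floor.

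The gene neighbourhoods were examined because 3 members share the APOA1 cluster and 2 share the APOE cluster. In the APOA1 cluster on chromosome 11, APOA4, APOC3 and APOA1 stand side by side and were all past the 2-fold limit. None of 7 listed neighbours was, with log2 fold changes from -0.46 for TAGLN to 0.77 for PCSK7. Nothing is read from this difference. The members were chosen on these values, and APOA4 and APOC3 were compared only through their level in MEIS2-/- cells. The neighbours were all at 5.67 FPKM or above in WT cells. APOA5, the cluster gene next to APOA4, was at 0.01 FPKM in the WT library and at 0.07 FPKM in the MEIS2-/- one. In the APOE cluster on chromosome 19, APOC4 and APOC2 followed APOE and APOC1 and were under 1 FPKM in both libraries, at 0.23 and 0.90 FPKM for APOC4 and 0.27 and 0.18 FPKM for APOC2. Of 7 neighbours there, BCAM was at least 2-fold higher (log2 fold change 1.11, or 0.99 after scaling to a median log2 ratio of 0) and BCL3 at least 2-fold lower (-1.32). The 6 neighbours of APOM ranged from -0.12 to 0.49.

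Genes of a list of other apolipoproteins were low or differed little between the libraries. This list was drawn widely. It includes APOO and APOOL by name, and PLTP and PON1, which are not apolipoproteins. PLTP is counted again among the lipid transfer genes below. Of its 20 genes, 17 were listed, 7 were compared and none was past 2-fold in either direction, with a median log2 fold change of 0.00, which turned to -0.11 after scaling to a median log2 ratio of 0. CLU, which encodes a secreted chaperone also known as apolipoprotein J, was at 15.57 and 15.59 FPKM in WT and MEIS2-/- cells. PLTP, the phospholipid transfer protein, was at 93.20 and 96.29 FPKM. APOL1, APOL2, APOL4, APOO and APOOL ranged from -0.44 to 0.74. APOD, APOL3 and APOL5 were listed at 0 in WT cells and at 0.06 to 0.11 FPKM in MEIS2-/- cells.

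Genes that assemble and export lipoproteins were present in both libraries. All 20 genes of this list were compared, 3 were at least 2-fold higher, 1 was at least 2-fold lower, and the median was 0.02, or -0.097 after that scaling. P4HB, the protein disulfide isomerase that pairs with MTTP, was at 511.90 FPKM in the WT library and at 387.68 FPKM in the MEIS2-/- one. SAR1B, the GTPase that buds chylomicron carriers, was at 4.03 and 3.99 FPKM. Those past 2-fold upward were SOAT2, which makes the cholesteryl esters packed into APOB particles (1.92 and 10.09 FPKM), CIDEB, which helps to lipidate them (0.40 and 1.44 FPKM), and PRAP1 (0.81 and 2.34 FPKM). CIDEB and PRAP1 were under 1 FPKM in WT cells and were compared only through their level in MEIS2-/- cells. Of the 18 genes at 1 FPKM or above in WT cells, 1 was at least 2-fold higher, beside 5.48% of all such genes. The count of 3 is therefore not support for a direction.

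Receptors were mixed. Of 18 genes for lipoprotein receptors and uptake, 15 were compared, with 4 at least 2-fold higher, 1 at least 2-fold lower and a median of 0.25. Among the higher genes, LRP2 (megalin) was at 2.06 and 6.34 FPKM, CUBN (cubilin, which binds APOA1) at 0.32 and 1.19 FPKM and SORT1 (sortilin) at 5.21 and 11.17 FPKM. CUBN was under 1 FPKM in WT cells and was compared only through its level in MEIS2-/- cells. Of the 14 genes at 1 FPKM or above in WT cells, 3 were at least 2-fold higher and 1 at least 2-fold lower. VLDLR, which takes up triglyceride-rich particles, was the lower gene, at 2.83 and 0.93 FPKM. After scaling to a median log2 ratio of 0, SORT1 went from 1.09 to 0.97, under the limit.

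Among 15 genes for lipid transfer and lipolysis, 8 were compared, 2 were at least 2-fold higher and none lower, with a median of -0.24. Both were lipid exporters that load high-density lipoprotein. ABCA1 was at 3.89 and 9.38 FPKM, and ABCG1 at 0.72 and 1.89 FPKM. ABCG1 was under 1 FPKM in WT cells and was compared only through its level in MEIS2-/- cells. Of the 6 genes at 1 FPKM or above in WT cells, 1 was at least 2-fold higher, so the count of 2 is not support for a direction. LCAT, which esterifies cholesterol on high-density lipoprotein, was at 23.07 and 12.82 FPKM, a log2 fold change of -0.84. LIPG, the endothelial lipase, was at 14.70 and 7.69 FPKM (-0.93), and passed the 2-fold limit, at -1.04, after scaling to a median log2 ratio of 0.

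Transcription factors known to act on apolipoprotein genes were taken from a list of 20, of which 14 were compared, 3 at least 2-fold higher and none lower, with a median of 0.25. HNF4A, a nuclear receptor of liver and visceral endoderm, was at 6.40 FPKM in the WT library and at 29.08 FPKM in the MEIS2-/- one. FOXA1 was at 2.29 and 10.22 FPKM, and CEBPA at 2.67 and 7.02 FPKM. FOXA2 was at 43.06 and 49.12 FPKM, under the 2-fold limit. Their part in the levels of the members was not tested.

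Other secreted proteins of visceral endoderm were also read. Of 16 such genes, 11 were compared, 8 at least 2-fold higher and 1 at least 2-fold lower, with a median of 1.89. Of the 8 higher genes, 6 were under 1 FPKM in WT cells and were compared only because they were above that level in MEIS2-/- cells, so neither this count nor the median is support for a direction. Of the 5 genes at 1 FPKM or above in WT cells, FGA (3.13 and 7.31 FPKM) and FGB were at least 2-fold higher, TFPI2 was at least 2-fold lower, and VTN was at 4.70 and 3.77 FPKM. The highest log2 fold changes were those of the fibrinogen chain FGB (2.16 and 45.66 FPKM) and prothrombin, F2 (0.16 and 3.77 FPKM). AFP, the yolk sac albumin homologue, was at 0.32 and 3.91 FPKM, and TFPI2 was the lower gene, at 12.72 and 2.26 FPKM.

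Cell type markers were read beside these values. Of 12 visceral endoderm markers, all were compared, 5 were at least 2-fold higher and none lower, and their summed level was 391.9 FPKM in the WT library and 575.4 FPKM in the MEIS2-/- one. The 5 higher genes, AFP, TTR, HNF4A, CUBN and CDX2, belong to other lists given here too and are not separate observations. AFP, TTR and CUBN were under 1 FPKM in WT cells and were compared only through their level in MEIS2-/- cells. Of the 9 markers at 1 FPKM or above in WT cells, 2 were at least 2-fold higher and none lower, so the count of 5 is not support for a direction. These 2 were HNF4A and CDX2, and CDX2 is not specific to visceral endoderm. It is counted again among the intestine genes and the amnion and trophectoderm markers. None of the 12 was at 0. SOX17, the largest part of both sums and also a definitive endoderm marker, was at 141.01 and 264.03 FPKM. GATA4 was at 71.37 and 65.34 FPKM and GATA6 at 72.52 and 55.42 FPKM, so genes of this list were expressed in both cultures. Bulk RNA does not say which cells held them, so these levels do not identify endoderm. Endothelium markers summed to 560.6 FPKM in the WT library and 126.8 FPKM in the MEIS2-/- one, with 7 of 10 at least 2-fold lower, or 8 after either scaling. Hematopoietic markers summed to 144.5 and 60.9 FPKM, with 4 of 5 compared at least 2-fold lower. Pluripotency markers summed to 334.9 and 1608 FPKM, with 3 of 4 compared at least 2-fold higher. Most of both sums was POU5F1 alone, at 285.65 and 1454.14 FPKM. SOX2, of the same list, was at 0.09 FPKM in the WT library and 0.15 FPKM in the MEIS2-/- one and was not compared. The part of these cell types in the levels of the members was not tested.

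Macrophages make much APOE and APOC1. Of 8 macrophage markers, 6 were listed and 2 compared, none past 2-fold, and their summed level was 5.05 FPKM in the WT library and 4.80 FPKM in the MEIS2-/- one. The defining markers CSF1R (0.17 and 0.11 FPKM) and CD14 (0.14 and 0.30 FPKM) were near 0 in both libraries. The compared markers were CD68 (2.94 and 1.64 FPKM) and CD163 (0.87 and 1.71 FPKM). The part of macrophages in the levels of APOE and APOC1 was not tested.

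Genes whose pair of levels was nearest to that of a member were sought among those that reached 5 FPKM in either library, by the distance between log2(FPKM + 0.1) values over the 2 libraries. APOB itself, at 0.27 and 3.72 FPKM, did not reach 5 FPKM. Genes at similarly low levels, such as AFP (0.32 and 3.91 FPKM), were therefore not searched, although they can lie nearer to it. Within the genes searched, those nearest to APOB were TTR, the yolk sac thyroxine carrier (0.38 and 5.31 FPKM, distance 0.63), WNT2B (0.82), SCGB3A2 (0.93), MTTP (1.13) and ALDH1A1 (1.13). Among the nearest to APOE were the ribosomal protein genes RPLP0 (0.08), RPLP1 (0.10), RPS19 (0.12) and RPL3 (0.13), which are abundant mRNAs. Nearest to APOA1 were H3-3A (0.54), SERPINE2 (0.56), CALR (0.57), RPS7 (0.62) and TRIM28 (0.64), all with a smaller log2 fold change than APOA1.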

How the data were processed

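RNA-Seq was carried out by BGI on total RNA extracted with Trizol, with libraries from an Illumina TruSeq kit. FPKM is the unit the authors deposited, to 2 decimals and listed under NCBI Gene numbers with RefSeq transcripts. The submitters' processing notes name hg19, BWA, Bowtie and RSEM, with no versions given. FPKM is relative to the whole library, so a change in abundant genes shifts all values.

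Symbols were matched through the RefSeq table of GRCh38.p14 for 17365 of 17397 genes. The values were used as deposited, with no scaling. No test was run, since each genotype had 1 library. The tables hold no counts. In low values of single-transcript genes (536 in WT cells and 585 in MEIS2-/- cells) the best agreement with whole-read steps was 0.201 and 0.126, where 1 is complete, so depth is unknown and no counting interval is given. Fragments for each 1000000 mapped were estimated as FPKM times the longest matching transcript of GENCODE 29. Gene order, overlapping spans and promoter sequences with their positions came from RefSeq tables (GRCh38.p14), whose coordinates were not joined to the hg19 values.

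The members, gene lists and motifs were chosen with earlier results of these data known. By the naming rule, all members and MEIS2 were named, genes of the lists (those past 2-fold first), marker lists by counts and leading genes, and the 5 genes nearest to APOA1, APOB and APOE. BAG6 and APOC1P1 were named for their position or sequence. Some genes and a motif that fall under these rules are not reported here by name, although list counts and medians include those genes. The 2-fold calls and both scalings, and no other step, were run on data with planted changes. The changes planted for the calls carried no noise and were past the limit, so their recovery checks only the code. Python 3.11.15, numpy 2.4.6, pandas 2.3.3 and matplotlib 3.10.9 were used.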

Additional observations from a re-analysis of the deposited data

How the results depend on the processing

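The alternatives were pseudocounts of 1 and 0.01 FPKM, no filter or a filter at 5 FPKM, scaling to a median log2 ratio of 0 or by TMM, and thresholds of 1.5-fold and 4-fold. Of 88 values computed under them, 74 kept their direction and side of the limit or stayed within 1.5 times a count. A change of filter cannot alter the fold change of a gene that is kept. Part of the 74 was therefore fixed in advance, and this tally is not a measure of robustness. The median of the members ran from 1.13 to 1.99. A total of 7 members were at least 2-fold higher under the deposited scaling, both other scalings, no filter and a pseudocount of 0.01 FPKM. With a pseudocount of 1 FPKM there were 6, since APOA4 went to 0.66. A filter at 5 FPKM left 5 members, 3 of them higher, and a 4-fold threshold left 4 higher. Among all genes, 1025 were higher and 1042 lower. These became 623 and 693 with a pseudocount of 1 FPKM, 554 and 598 with the 5 FPKM filter, 2353 and 1890 at 1.5-fold and 194 and 241 at 4-fold, and 1567 were higher without a filter. Scaling to the median or by TMM shifted log2 fold changes by 0.12 and 0.10 and turned APOE to -0.097 and -0.086. No replicate could be left out, and no paired analysis was possible because each genotype has 1 library. Depth is unknown, which limits the genes under 1 FPKM most.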

Other observations

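Of 12 genes of intestine and mature liver, 11 were listed and 3 compared, of which 2 were at least 2-fold higher and none lower, with a median log2 fold change of 1.97. CDX2, an intestinal and extraembryonic factor, was at 4.83 FPKM in the WT library and at 21.24 FPKM in the MEIS2-/- one, and VIL1, which builds microvilli and is made in visceral endoderm too, was at 5.06 and 20.05 FPKM. TAT, a liver enzyme, was at 1.15 and 0.89 FPKM. FABP2, CDH17, LGALS4 and CYP3A4 were at or under 0.17 FPKM in both libraries.

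Marker lists of other cell types differed in direction. Of 8 definitive endoderm markers, 2 were at least 2-fold higher (1 after either scaling, without CXCR4) and 2 at least 2-fold lower, among the latter HHEX, at 18.74 and 4.17 FPKM. Of 4 compared pluripotency markers, 3 were at least 2-fold higher and none lower, and the list summed to 334.9 FPKM in the WT library and 1608 FPKM in the MEIS2-/- one. POU5F1, which encodes OCT4, was at 285.65 and 1454.14 FPKM, NANOG at 17.13 and 70.78 FPKM and L1TD1 at 10.43 and 41.03 FPKM, while SOX2 was at 0.09 and 0.15 FPKM. Of 7 compared amnion and trophectoderm markers, 5 were at least 2-fold higher and none lower, with GABRP at 1.06 and 11.42 FPKM. Of the 6 at 1 FPKM or above in WT cells, 4 were at least 2-fold higher, among them CDX2, which is counted in other lists too. Of 6 mesenchyme markers, 3 were at least 2-fold lower. The part of these cell types in the levels of the apolipoprotein genes was not tested.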
